A study of Mus musculus with 12 samples.

Results

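Grm6, Lyrm7, Trpm5 and Gpatch11 are 4 mouse genes, of 43629 in the count table, picked by name for their higher levels in marginal zone (MZ) B cells deficient in Zfp36l1 and for having no well-known role in B cells. Their rise in that comparison is therefore how they were chosen and is given below as a description, without a test. The study sequenced RNA from splenic B cells sorted straight from mice, in 3 groups of 4 libraries. Deficient MZ libraries (replicates 1, 2, 7 and 8) carried the genotype Zfp36l1fl/flERT2cre/+, a floxed Zfp36l1 with 1 copy of a Cre recombinase fused to a tamoxifen-responsive receptor. Control MZ libraries (replicates 3, 4, 5 and 6) were ERT2cre/ERT2cre. Follicular (FO) B cell libraries (replicates 3, 4, 7 and 8) were Zfp36l1fl/fl cre-, so the control MZ cells carried the Cre and the FO cells the floxed allele. Deficient and control MZ differ both in the floxed allele and in the copies of the Cre, so these cannot be told apart between them. All 12 libraries share the strain label Zfp36l1tm1.1Tnr. The sources used here do not give the promoter that drives the Cre, the age of the animals or any tamoxifen treatment. The gates were B220+CD93+CD21hiCD23- for MZ and B220+CD93+CD21+CD23+ for FO cells. Nothing in the labels ties a replicate to an animal of its own, and the p-values below therefore measure the spread between these libraries only.

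Each library held 28938453 to 40664963 counts. Levels are CPM, counts scaled to library size, adjusted by the trimmed mean of M-values (TMM). Zfp36l1, the targeted gene, lay at 22.0, 31.9, 28.1 and 37.5 CPM in deficient MZ replicates 1, 2, 7 and 8, against 110 to 126 CPM in control MZ and 352 to 396 CPM in FO libraries. The B cell marker Cd79a, a chain of the B cell receptor, stood at 3476 to 4493 CPM in deficient MZ, 3390 to 3797 CPM in control MZ and 3018 to 3356 CPM in FO libraries. MZ markers (Cr2, Cd1d1, S1pr3, Cd9, Dtx1) summed to 6093 to 6661 CPM in deficient MZ, 7058 to 7405 CPM in control MZ and at most 1735 CPM in every FO library. The FO markers Fcer2a and Ighd showed the opposite order between MZ and FO. By the edgeR test described below, Cd1d1 was higher in deficient than control MZ (log2 difference 0.56, adjusted p = 0.00742). Dtx1 was lower (-0.40, edgeR adjusted p = 0.0100), and Cr2, S1pr3 and Cd9 were not called. By the series' design text MZ and FO libraries also differ in kit and read layout, and by genotype in the Cre allele. Cell type and preparation therefore cannot be told apart between them.

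The proteins of these genes work in unrelated places. Grm6 encodes mGluR6, the metabotropic glutamate receptor through which retinal ON bipolar cells read glutamate. Lyrm7 encodes a mitochondrial LYR motif chaperone that holds the Rieske iron-sulphur protein, Uqcrfs1, before it enters respiratory complex III. Trpm5 encodes a calcium-activated cation channel known from taste cells and tuft cells. Gpatch11 encodes a protein with a G-patch, a glycine-rich domain that in its relatives docks onto and activates RNA helicases. Zfp36l1 is an RNA-binding protein that recognises AU-rich elements in 3′ untranslated regions (UTRs) and promotes decay of the bound RNA.

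On the mouse build GRCm38 with GENCODE M21 genes, Grm6 (ENSMUSG00000000617) spans chr11:50850685-50866208 on the plus strand, and Lyrm7 (ENSMUSG00000020268) spans chr11:54826866-54860916 on the minus strand. These 2 genes share chromosome 11 with 3.96 Mb between them. Trpm5 (ENSMUSG00000009246) spans chr7:143069153-143094642 on the minus strand, and Gpatch11 (ENSMUSG00000050668) chr17:78835567-78848308 on the plus strand. Because Zfp36l1 binds AU-rich RNA, the longest annotated 3′ UTR of each gene was searched on its sense strand for the 7-base element TATTTAT. Lyrm7 held 1 match in a 3′ UTR of 2773 bases and Gpatch11 held 2 in 3109 bases, and these 3 sites are printed because they are all the matches among the 4 genes. Each line gives 30 bases of transcript sequence from 5′ to 3′ with the element in capitals.

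Lyrm7, element at chr11:54839252-54839258, minus strand: tttagatcttaTATTTATttgtatgagtgt

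Gpatch11 first site, element at chr17:78846874-78846880, plus strand: caacttttaaaTATTTATagggggttggca

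Gpatch11 second site, element at chr17:78847244-78847250, plus strand: gacagcctaaaTATTTATggctacaactga

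No match was found in the 3′ UTR of Grm6 (1548 bases) or of Trpm5 (566 bases), which says only that these letters are not in those windows. Among tested genes with an annotated 3′ UTR, 3336 of 11427 (29.2%) held the element, so 2 of 4 is a description of these genes and a match is not a binding site. The 2 genes with a match have longer 3′ UTRs than most: 20.3% of tested genes exceeded Lyrm7 in length and 16.1% exceeded Gpatch11, against 44.3% for Grm6 and 76.3% for Trpm5.

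Grm6 stood at 53.5, 26.8, 28.3 and 54.2 CPM in deficient MZ replicates 1, 2, 7 and 8. In control MZ replicates 3 to 6 it stood at 4.75, 4.45, 4.85 and 4.74 CPM, and in FO replicates 3, 4, 7 and 8 at 7.22, 12.1, 10.5 and 6.61 CPM. The deficient libraries split into a high pair, replicates 1 and 8, and a low pair, replicates 2 and 7, while the control libraries lay within 1.09-fold of each other. The mean was 40.7 ± 15.2 CPM in deficient MZ, 4.70 ± 0.174 in control MZ and 9.10 ± 2.63 in FO (SD, n = 4 each). That is 8.67-fold between the MZ means, and the lowest deficient library exceeded the highest control library 5.53-fold. These CPM rest on 959 to 1828 counts in deficient and 166 to 203 counts in control MZ.

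Lyrm7 stood at 14.8, 9.25, 8.76 and 15.2 CPM in deficient MZ, at 2.97, 3.32, 3.37 and 3.08 CPM in control MZ and at 10.2, 13.5, 9.17 and 10.3 CPM in FO, in the same replicate order. Replicates 1 and 8 were again the high pair of the deficient libraries, and the deficient and FO ranges overlapped while the control libraries lay below both. The means were 12.005 ± 3.47, 3.19 ± 0.192 and 10.8 ± 1.90 CPM (SD, n = 4 each), a 3.77-fold difference between the MZ groups.

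Trpm5 stood at 8.96, 8.05, 6.53 and 15.9 CPM in deficient MZ, at 1.36, 1.04, 2.01 and 1.33 CPM in control MZ and at 3.42, 4.62, 4.07 and 3.60 CPM in FO. Here replicate 8 stood alone at the top and replicate 1 lay close to replicate 2. The 3 groups did not overlap. The means were 9.86 ± 4.15, 1.43 ± 0.407 and 3.93 ± 0.537 CPM (SD, n = 4 each), 6.87-fold between the MZ groups, resting on 39 to 84 counts in control MZ, the thinnest of the 4 genes.

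Gpatch11 stood at 61.8, 76.2, 81.0 and 83.2 CPM in deficient MZ, at 38.8, 36.5, 37.5 and 35.6 CPM in control MZ and at 49.6, 45.2, 52.2 and 67.1 CPM in FO. Its order among the deficient libraries was 8, 7, 2 and 1, so that replicate 1, high for Grm6 and Lyrm7, was the lowest for Gpatch11. The spread within the deficient group was 1.35-fold, against 2.02-fold for Grm6, 1.74-fold for Lyrm7 and 2.43-fold for Trpm5. The means were 75.5 ± 9.64, 37.1 ± 1.37 and 53.5 ± 9.48 CPM (SD, n = 4 each), a 2.03-fold difference between the MZ groups.

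**Figure D1:**
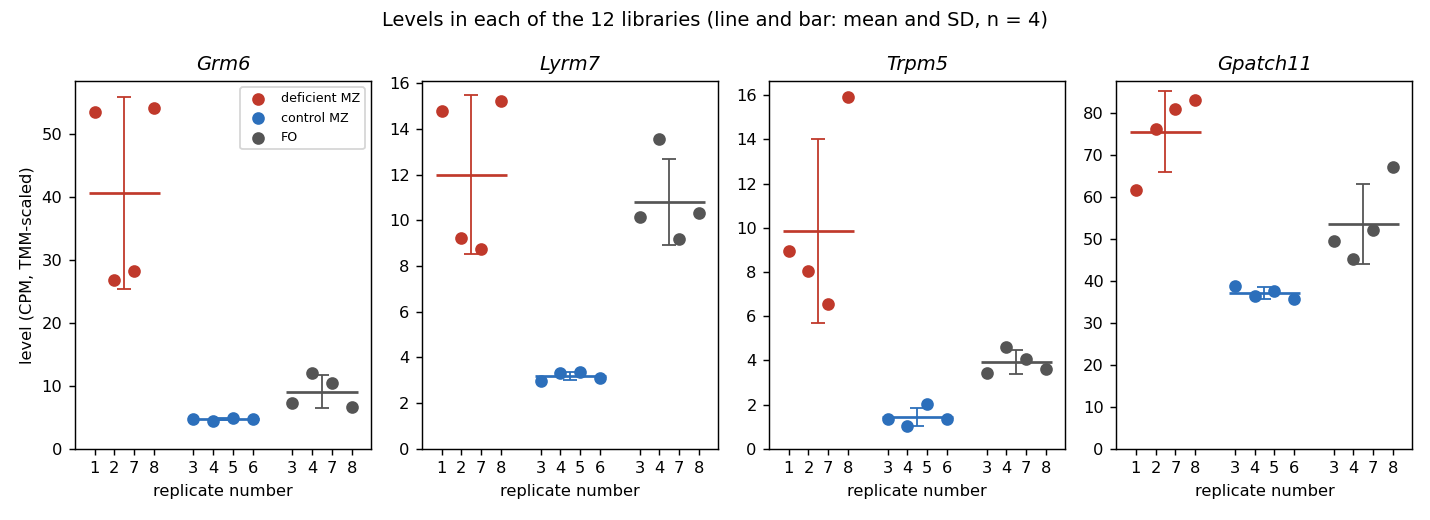
Level of each of the 4 genes in CPM (vertical axis, from 0) in the 12 libraries, ordered by group and replicate number, with 1 point per library and a line and bar for the group mean and SD. Deficient MZ replicates 1 and 8 lie above replicates 2 and 7 for Grm6 (53.5 and 54.2 against 26.8 and 28.3 CPM) and Lyrm7, while Gpatch11 is lowest in replicate 1 (61.8 CPM).

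Compared per length, the level in deficient MZ was 12.3 CPM per kb of exon for Gpatch11, 7.51 for Grm6, 2.38 for Lyrm7 and 1.54 for Trpm5. The order in control MZ was the same, with 6.04, 0.866, 0.631 and 0.224 CPM per kb. In FO cells Lyrm7, at 2.14 CPM per kb, had a higher mean than Grm6 at 1.68, with Gpatch11 at 8.71 and Trpm5 at 0.614. These libraries hold RNA from many cells, and a change in RNA per cell cannot be told apart from a change in how many cells carry it. The mean CPM of Grm6 was above that of 31.3% of tested genes in control MZ and of 63.8% in deficient MZ. For Trpm5 the same shares were 20.1% and 38.7%.

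In a quasi-likelihood fit across all genes with edgeR, the log2 differences between deficient and control MZ were 3.10 (SE 0.23) for Grm6, 2.76 (SE 0.28) for Trpm5, 1.90 (SE 0.19) for Lyrm7 and 1.02 (SE 0.09) for Gpatch11. By size of the rise they ranked 9, 12, 35 and 188 of 13987 tested genes. The authors' deposited table gives log2 values of 1.49, 1.44, 1.29 and 0.91 in the same order of genes, and whether those were shrunk is not stated. In this comparison 526 genes (3.76% of those tested) had an adjusted p under 0.05, 322 (2.3%) higher and 204 (1.46%) lower in deficient MZ. The 4 genes' groups did not overlap, as was so in this direction for 6.31% of tested genes, and nothing is read from that since the same contrast chose them.

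FO cells were not used to choose the genes, but the MZ libraries compared with them were. All 4 genes had lower levels in control MZ than in FO B cells by edgeR's quasi-likelihood test with Benjamini-Hochberg adjustment over all genes. The log2 difference, control MZ minus FO, was -1.75 (SE 0.14, adjusted p = 8.25e-08) for Lyrm7, -1.44 (SE 0.21, adjusted p = 3.19e-05) for Trpm5, -0.94 (SE 0.18, adjusted p = 0.000308) for Grm6 and -0.52 (SE 0.10, adjusted p = 0.000445) for Gpatch11. Every one of the 4 control MZ libraries lay below every FO library for each gene. The background is high: 81.3% of tested genes were called in this comparison, 38.7% of tested genes in this direction, and 37.2% had control MZ libraries wholly below FO. In the authors' deposited table the corresponding log2 values, MZ against FO, were -1.75, -1.43, -0.94 and -0.52.

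Between deficient MZ and FO cells the 4 genes differed in size. Grm6 was higher in deficient MZ by 2.19 on the log2 scale (SE 0.32, edgeR adjusted p = 0.000257), Trpm5 by 1.35 (SE 0.24, edgeR adjusted p = 0.000194) and Gpatch11 by 0.53 (SE 0.12, edgeR adjusted p = 0.00129). Lyrm7 did not pass the test, with a difference of 0.18, a 95% interval of -0.23 to 0.59 and an edgeR adjusted p of 0.400. Deficient libraries lay wholly above FO libraries for Grm6 and Trpm5 and overlapped them for Lyrm7 and Gpatch11. In this comparison 81.1% of tested genes were called, 42.8% of tested genes higher in deficient MZ, and 38.9% had deficient libraries wholly above FO. This comparison shares its FO libraries with the previous one and its deficient libraries with the choice of genes, so the 3 sets of differences are not independent.

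**Figure D2:**
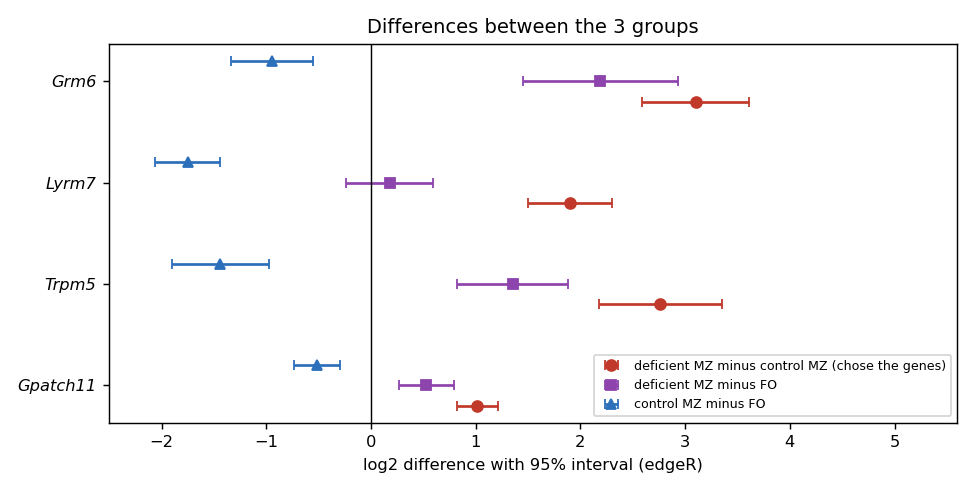
Log2 difference (horizontal axis) with its 95% interval from edgeR for the 4 genes (rows) in 3 comparisons: deficient minus control MZ, control MZ minus FO and deficient MZ minus FO, with 4 libraries per group. All 4 genes lie left of 0 for control MZ minus FO, and the interval of Lyrm7 for deficient MZ minus FO, -0.23 to 0.59, spans 0.

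Genes close together on a chromosome tend to be inherited together, so the genes beside each of the 4 loci were compared library by library. Inheritance itself was not measured, and its part in the levels below was not tested. Zfp36l1 is annotated on chromosome 12, away from all 4 genes. The position of the Cre was not examined, so its distance from the 4 genes is not given here. Genes within 2 Mb of the 4 loci, measured between gene spans, numbered 410, and 164 of them had enough counts to test. Of these, 13 (7.93%) were called between deficient and control MZ, 10 higher and 3 lower, against 3.76% of all tested genes. The share differed between the loci: 7 of 26 near Lyrm7, 3 of 57 near Grm6, 3 of 55 near Trpm5 and 0 of 26 near Gpatch11. The median log2 difference of the tested neighbours was close to that of all tested genes (-0.00), at 0.02 near Lyrm7, -0.05 near Grm6, -0.01 near Trpm5 and -0.05 near Gpatch11.

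Around Lyrm7 the called genes lay mostly on 1 side. Hint1, a nucleotide-hydrolysing histidine triad protein, starts 5.47 kb beyond the 5′ end of Lyrm7 on the opposite strand. From Hint1 to Slc36a1, a span reaching 343 kb from Lyrm7 and picked out after its values were seen, 9 genes were tested, of which 5 rose and 1 fell by edgeR. The other 3 were not called by edgeR: Gpx3 (log2 difference -0.14, adjusted p = 0.898), Slc36a3 (-1.09, adjusted p = 0.0544) and Slc36a3os (-0.69, adjusted p = 0.138). DESeq2 also called Slc36a3 lower. Within the same distance on the other side 4 genes were tested and 0 were called by edgeR or DESeq2, with 1 at an unadjusted p under 0.05. The nearest of those, Cdc42se2, had a log2 difference of 0.04 (SE 0.06, edgeR adjusted p = 0.792).

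Slc36a1, a proton-coupled amino acid transporter of lysosomes, stood at 13.3, 8.10, 7.39 and 9.45 CPM in deficient MZ, 4.38, 4.04, 2.72 and 3.54 CPM in control MZ and 16.4 to 26.1 CPM in FO. Its groups did not overlap, and FO cells were highest, whereas the FO and deficient ranges of Lyrm7 overlapped. Its log2 difference between the MZ groups was 1.37 (SE 0.20, edgeR adjusted p = 0.00156), the largest among the called neighbours of Lyrm7. Gm2a, the GM2 ganglioside activator, went the other way: 457, 475, 485 and 393 CPM in deficient MZ against 597 to 688 CPM in control MZ, a fall of 0.50 on the log2 scale (SE 0.08, edgeR adjusted p = 0.00227).

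The other risers near Lyrm7 were small in size. Anxa6, a calcium-dependent membrane-binding annexin, had 451, 375, 371 and 397 CPM in deficient MZ against 270 to 324 in control MZ (log2 difference 0.42, SE 0.08, edgeR adjusted p = 0.0111). Ccdc69 had a log2 difference of 0.47 (edgeR adjusted p = 0.0125), Tnip1, which restrains NF-kappa-B signalling, 0.38 (edgeR adjusted p = 0.0309) and Hint1 0.41 (edgeR adjusted p = 0.0404). Uqcrq, a subunit of complex III, lies 1396 kb away on the other side, and its log2 difference was 0.64 (edgeR adjusted p = 0.0368). Leaving out 1 library at a time, the calls of Slc36a1, Gm2a, Anxa6 and Ccdc69 held in all 8 fits. The calls of Tnip1 and Uqcrq were lost without control MZ replicate 3, 4 or 6 or deficient MZ replicate 8, with adjusted p up to 0.104 and 0.0905. That of Hint1 was lost without any 1 of the 4 control MZ replicates or deficient MZ replicate 8, with adjusted p up to 0.109.

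Library by library, the 6 called genes that rose near Lyrm7 all had replicates 1 and 8 as the highest pair of the deficient group, as did Lyrm7 and Grm6. Hint1, for example, stood at 119 and 98.8 CPM in replicates 1 and 8 and at 85.8 and 79.7 CPM in replicates 2 and 7. On chromosome 7, Trpm5, Cd81 and Tssc4 had the same highest pair, replicates 1 and 8, so it was not limited to chromosome 11. That pair was also on top in 94 of the 322 genes called higher (29.2%), in 3016 of 13987 tested genes (21.6%) and in 10 of the 26 tested within 2 Mb of Lyrm7 (38.5%). The opposite pair, replicates 2 and 7, was on top in 2899 of the 13987 tested genes (20.7%) and in 31 of the 322 called higher (9.63%).

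**Figure D3:**
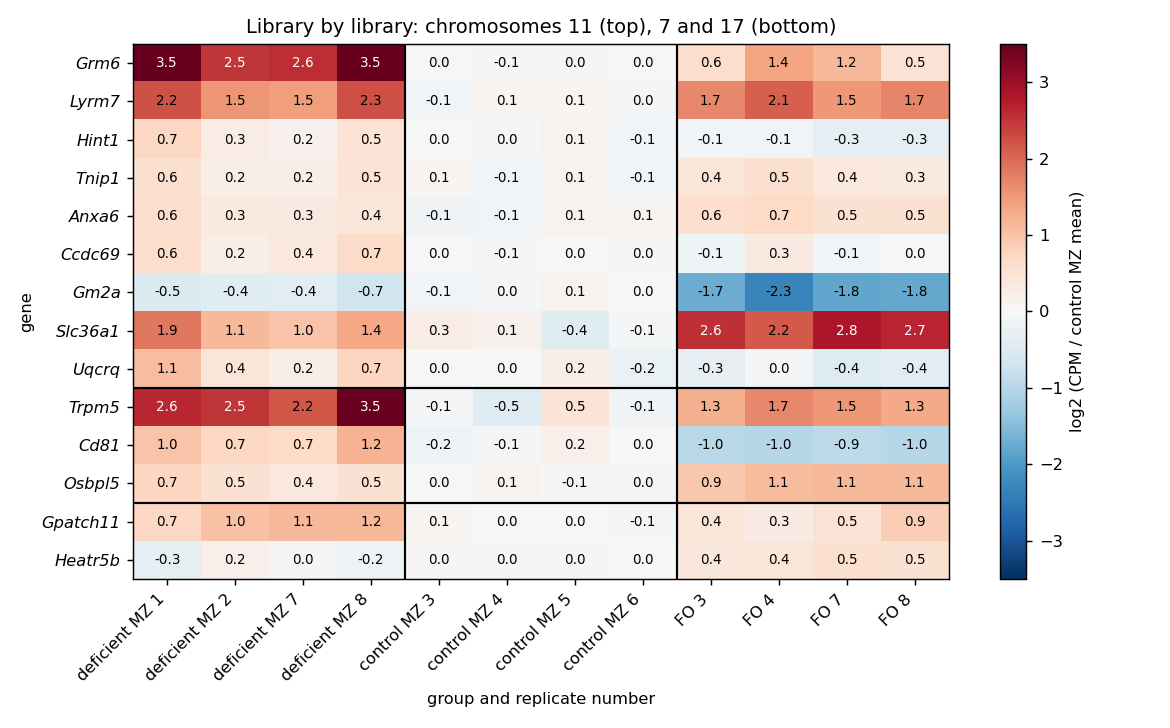
Each cell gives log2 of a gene's CPM over its mean in control MZ (colour scale and printed value) for 14 genes (rows: Grm6, Lyrm7 and 7 called Lyrm7 neighbours on chromosome 11, then Trpm5 with Cd81 and Osbpl5 on chromosome 7, then Gpatch11 with Heatr5b on chromosome 17) in the 12 libraries (columns). Among the deficient MZ libraries, replicates 1 and 8 are the deepest red for the chromosome 11 genes that rose, and also for Trpm5 and Cd81 on chromosome 7. For Slc36a1 the FO libraries are deeper red still. Gm2a is below its control mean in all 4 deficient libraries.

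Around Grm6, on the same chromosome, edgeR called 0 genes at close range. Its nearest tested neighbour on 1 side was Zfp879, 9.13 kb away with a log2 difference of 1.75 at a mean of 0.807 CPM in deficient MZ (SE 0.53, edgeR adjusted p = 0.0848). On the other side it was Zfp2, 32.5 kb away with -0.00 (SE 0.12, edgeR adjusted p = 0.999). Zfp354c, 23.0 kb away on the side of Zfp879, stood at 11.1 to 12.6 CPM in deficient and 9.51 to 10.6 CPM in control MZ. Its log2 difference was 0.24 (SE 0.10, edgeR adjusted p = 0.229). Of 30 genes tested within 1 Mb of Grm6, 0 were called by edgeR, while 10 (33.3%) had an unadjusted p under 0.05, against 19.2% of all tested genes. DESeq2 called 3 of the 30 (10%), against 7.51% of all genes it tested: Zfp879, Zfp354b and Tbc1d9b. Zfp354b, 55.6 kb from Grm6, stood at 1.70, 1.23, 0.906 and 1.73 CPM in deficient MZ and 0.187 to 0.980 CPM in control MZ, with a log2 difference of 1.52 (SE 0.43, edgeR adjusted p = 0.0640). Its groups overlapped, and replicates 8 and 1 were its highest pair in deficient MZ. Tbc1d9b, 678 kb away, had a log2 difference of -0.25 (SE 0.07, edgeR adjusted p = 0.0517). Whether the loci of Grm6 and Lyrm7 differ in their share of called genes was not tested. The 3 called genes within 2 Mb were Tcf7, Zfp62 and Skp1a. Tcf7, a transcription factor of T cells, rose from 0.0494 to 0.255 CPM in control MZ to 0.335 to 1.84 CPM in deficient MZ (log2 difference 2.46, SE 0.53, edgeR adjusted p = 0.0185). Zfp62 fell by 0.38 (edgeR adjusted p = 0.0253), and Skp1a, a core subunit of SCF ubiquitin ligases, fell by 0.39 (edgeR adjusted p = 0.00966), both on the log2 scale. The call of Tcf7 was lost without control MZ replicate 3 or 4 or deficient MZ replicate 8 (adjusted p up to 0.0567). That of Zfp62 was lost without control MZ replicate 3, 4 or 5 or deficient MZ replicate 8 (adjusted p up to 0.088), and that of Skp1a held in all 8 fits. Of the 41 tested genes between Grm6 and Lyrm7, 3 were called (7.32%), Tcf7 and Uqcrq higher and Skp1a lower.

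The level of Tcf7 moved beside 1 of the 5 T cell markers. Cd8a was at 2.55, 1.48, 3.16 and 0.64 CPM in deficient MZ and at most 0.59 CPM in control MZ and was called higher, and the 5 markers summed to 0.993 to 3.32 CPM in deficient and 0.510 to 0.696 CPM in control MZ. Cd3e, Cd3g and Cd4 were at 0 or near it, with no MZ library above 0.0641 CPM, and Cd3d was at 0.116 to 0.256 CPM in deficient and 0.0510 to 0.239 CPM in control MZ. The part of T cell RNA in the level of Tcf7 was not tested. Among 5 erythroid markers 1 (Hbb-bt) was called higher, a call lost in 7 of 8 fits with 1 library left out, and their sum ran from 5.90 to 19.9 CPM in deficient and 1.09 to 9.01 CPM in control MZ. Among 5 macrophage and monocyte markers 1 (Adgre1) was called higher, also in all 8 such fits. Adgre1 stood at 4.10 to 5.48 CPM in deficient MZ, 0.696 to 2.25 CPM in control MZ and 5.52 to 17.9 CPM in FO. The 5 summed to 22.9 to 31.1, 21.2 to 24.4 and 13.6 to 28.8 CPM in these groups. Csf1r (log2 difference -0.17), Cd68 (-0.10), Lyz2 (-0.06) and Vcam1 (-0.05) were not called between the MZ groups. Unlike Adgre1, these 4 had lower means in FO than in either MZ group. FO replicate 4 was the highest FO library for each of the 5. The highest Adgre1 level was in FO replicate 4, which was also the highest FO library for Grm6, Lyrm7 and Trpm5, and the part of macrophage or erythroid RNA in the levels of the 4 genes was not tested. The tuft cell markers Pou2f3, Gnat3 and Il25 were at 0 in all 12 libraries. With Dclk1 and Avil the tuft list summed to 0.209 to 0.469 CPM in deficient MZ, 0.0717 to 0.268 CPM in control MZ and 1.002 to 1.38 CPM in FO. Dclk1 was at 0 in all 4 control MZ libraries and at 0.160 to 0.279 CPM in 3 of the 4 deficient ones. The tuft sum lay below the level of Trpm5 in each of the 12 libraries, and the part of tuft cell RNA in that level was not tested.

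Trpm5 lies 1.22 kb from Cd81, tail to tail on opposite strands. Cd81, a tetraspanin of the B cell surface, stood at 1005, 830, 812 and 1160 CPM in deficient MZ, 445, 481, 563 and 506 CPM in control MZ and 250 to 266 CPM in FO. It rose by a log2 difference of 0.92 (SE 0.11, edgeR adjusted p = 0.000245), and its order of groups differed from that of Trpm5, since FO cells were lowest for Cd81 and intermediate for Trpm5. Counts of Trpm5 were 0.805% to 1.37% of those of Cd81 in deficient MZ, 0.217% to 0.357% in control MZ and 1.33% to 1.84% in FO libraries, so the 2 genes did not keep 1 ratio.

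Of the exon bases of Trpm5, 3.44% lie under Tssc4 on the opposite strand. Tssc4, which had a log2 difference of 0.13 (SE 0.09, edgeR adjusted p = 0.460), did not pass the test. The remaining called neighbours were R74862, 15.5 kb away, at 0.59 (SE 0.14, edgeR adjusted p = 0.0305), and Osbpl5, a lipid transfer protein gene 594 kb away, at 0.54 (SE 0.09, edgeR adjusted p = 0.00318). Part of R74862 overlaps Cd81 on the other strand, and the strand setting of the counting is not known here. Its call was lost in 7 of 8 fits that left out 1 library, all but that without deficient MZ replicate 1 (adjusted p up to 0.0951), while those of Cd81 and Osbpl5 held in all 8. Antisense to 11.1% of the exon bases of Grm6 is an annotated predicted gene with 37 counts over the 4 deficient, 7 over the 4 control and 1 over the 4 FO libraries, too few to test.

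Of 26 genes tested within 2 Mb of Gpatch11, 0 were called by edgeR, with 2 at an unadjusted p under 0.05, and 0 of the 25 that DESeq2 tested were called. Heatr5b, a gene of endosomal trafficking, starts 203 bases from Gpatch11 head to head. Heatr5b stood at 34.6, 49.6, 44.9 and 39.1 CPM in deficient MZ and 42.8 to 44.9 CPM in control MZ, with a log2 difference of -0.07 (SE 0.10, edgeR adjusted p = 0.741). Gpatch11 counts were 153% to 213% of those of Heatr5b in deficient MZ, 81.3% to 87.7% in control MZ and 76.2% to 105% in FO libraries. The ratio was thus higher in every deficient library than in every control library, a restatement of the choice of Gpatch11 against a neighbour that was not called.

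**Figure D4:**
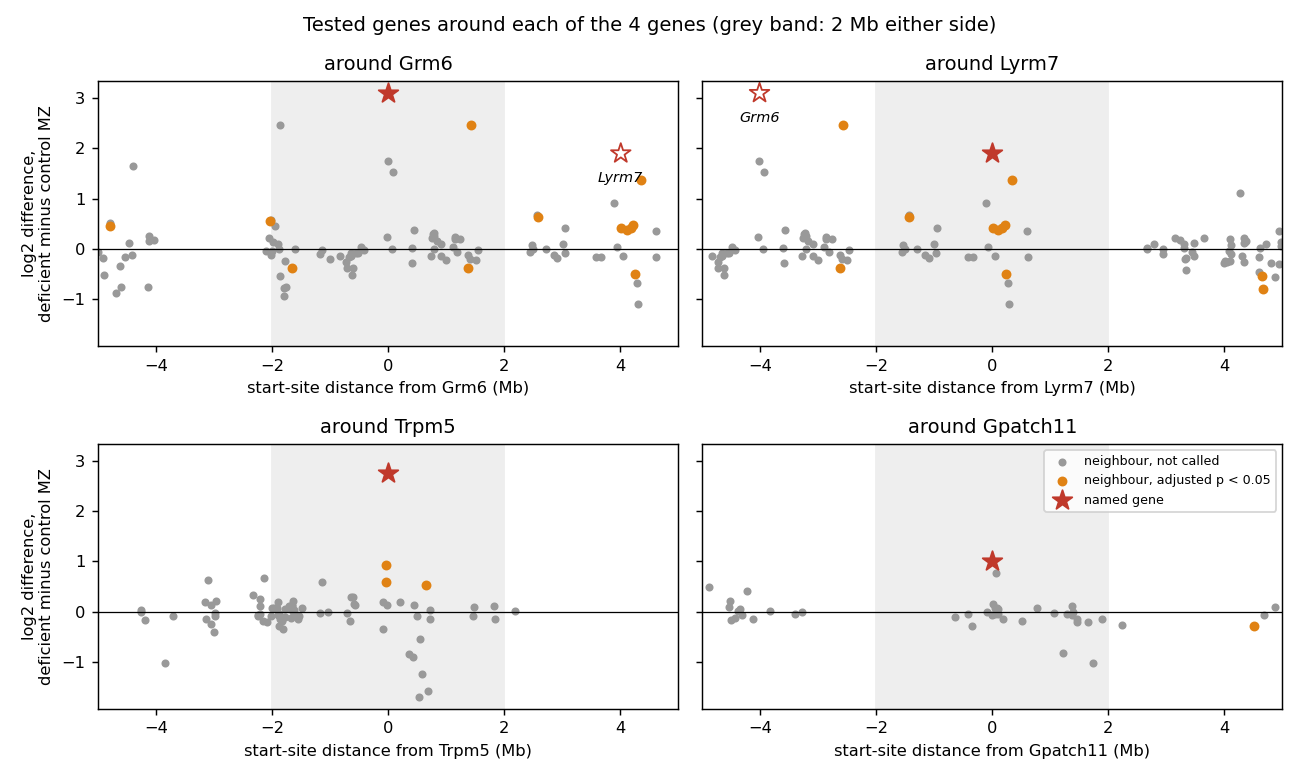
Log2 difference between deficient and control MZ (vertical axis) of tested genes against the distance of their start sites from each of the 4 genes in Mb (horizontal axis), with the named gene as a star, called neighbours in orange and a grey band for 2 Mb either side. Orange points cluster on 1 side of Lyrm7 (7 of 26 tested within 2 Mb were called), and none lies in the band around Gpatch11.

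By chromosome, 63 of 1171 tested genes on chromosome 11 were called (5.38%, 38 higher and 25 lower), 42 of 1033 on chromosome 7 (4.07%) and 25 of 723 on chromosome 17 (3.46%). The share over all tested genes was 3.76%. Chromosomes without any of the 4 genes ranged from 1.57% (chromosome 18) to 5.71% (chromosome 6), with 5.26% on chromosome 10.

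Among the relatives and partners of the 4 proteins, 1 gene was called by edgeR between deficient and control MZ. With 3.76% of all tested genes called, few or no calls in lists of this size are near the background and are not a result about the relatives. Of 7 other metabotropic glutamate receptors, 1 had enough counts to test and 3 had no count in any library. That 1, Grm5, stood at 1.08 to 1.23 CPM in deficient MZ, 0.482 to 1.05 CPM in control MZ and 0 in the 4 FO libraries. Its MZ difference of 0.69 on the log2 scale did not pass (SE 0.30, edgeR adjusted p = 0.227, and not called by DESeq2). Among 11 genes of the mGluR6 cascade in bipolar cells, 5 were tested and 0 were called by edgeR, with 0 at an unadjusted p under 0.05, and 0 of the 3 that DESeq2 tested were called. Of 7 other TRPM channels 4 were tested and 0 called by edgeR, with 1, Trpm7, at an unadjusted p under 0.05 and called by DESeq2. Trpm7, the kinase-channel of magnesium uptake, was nearest with a log2 difference of -0.39 (SE 0.11, edgeR adjusted p = 0.072), and it was called when deficient MZ replicate 1 or 7 was left out. Among 13 genes of taste and tuft cell transduction 4 were tested and 0 called by edgeR, with 0 at an unadjusted p under 0.05, and 0 of the 3 that DESeq2 tested were called. Plcb2 and Itpr3, which act upstream of Trpm5 in taste cells, had differences of -0.14 and -0.02 around levels of 77.7 to 105 and 239 to 288 CPM in the MZ libraries.

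The LYR motif family of Lyrm7 was tested whole: 0 of 10 were called by edgeR or DESeq2, with 1 at an unadjusted p under 0.05 and a median log2 difference of 0.01. Of 15 complex III subunits and assembly factors 1 rose by edgeR and DESeq2, Uqcrq, which is also a Lyrm7 neighbour, and 0 fell. The median was 0.15 against -0.00 for all tested genes. At an unadjusted edgeR p under 0.05 there were 5 of the 15 (33.3%), 4 of them higher, against 19.2% of all tested genes. Whether the list differs from all genes was not tested. The call of Uqcrq was lost in 4 of 8 fits with 1 library left out, as given above. Uqcrfs1, the Rieske protein that Lyrm7 chaperones, stood at 92.4 to 113 CPM in deficient and 88.2 to 109 CPM in control MZ and did not pass (log2 difference 0.06, SE 0.08, edgeR adjusted p = 0.713). For Gpatch11, 0 of 23 genes, made up of other G-patch proteins and a partner helicase, were called by edgeR or DESeq2, with 1 at an unadjusted p under 0.05 and a median log2 difference of -0.03.

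**Figure D5:**
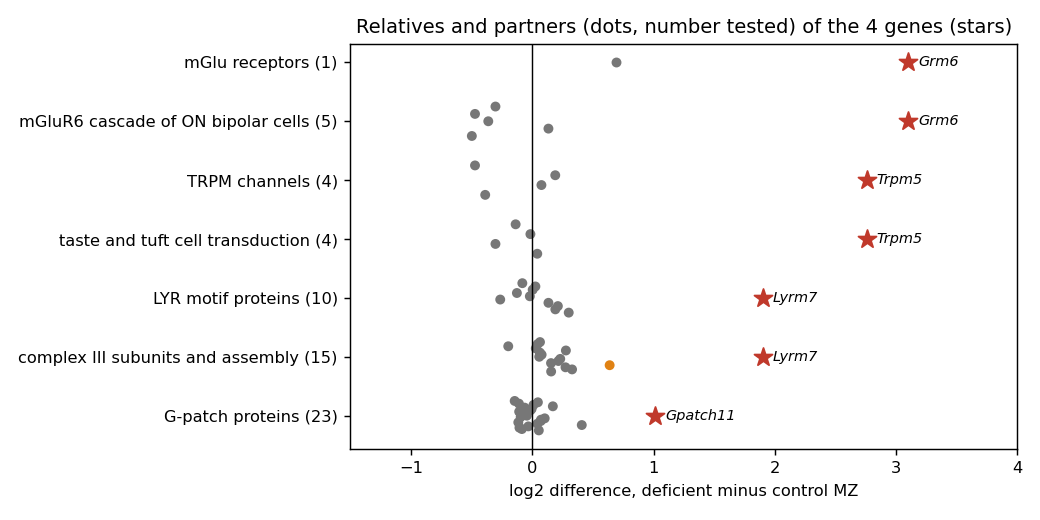
Log2 difference between deficient and control MZ (horizontal axis) of the tested relatives and partners of the 4 proteins, 1 dot per gene in 7 lists (rows, number tested in parentheses), orange where the adjusted p is under 0.05, with the 4 genes as stars. Uqcrq in the complex III list (0.64) is the 1 orange dot, and every dot lies left of the star in its row.

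The genes most like each member were sought among 13203 genes by the root mean square difference, over the 12 libraries, of log2 CPM set to the gene's own control MZ mean, and predicted genes are not named. This is a description, because the MZ difference that chose the 4 genes enters it. For Grm6 the closest was Trpm5 (0.46), then Ccdc102a (0.53) and, sixth when predicted genes are counted, Lyrm7 (0.84). For Trpm5 the closest named were Grm6 (0.46), Lyrm7 (0.49) and Ccdc102a (0.54), the last at rank 4 when unnamed genes are counted. Ccdc102a lay at 0 to 0.562 CPM in control MZ, near the 0.5 CPM added before taking logs. For Lyrm7 the closest named were Lgals3 (0.39), Bhlhe40 (0.47) and Wdfy1 (0.48), at ranks 2, 4 and 5 by the same count. Gpatch11 was closest to Ankrd37 (0.24), Ggnbp1 (0.24) and Sla (0.28). Of these, Ggnbp1 is also on chromosome 17, but at chr17:27017987-27037624, more than 10 Mb from Gpatch11. Lgals3, the galectin-3 gene, stood like Lyrm7 at 5.25 to 8.79 CPM in deficient MZ, 1.32 to 3.13 CPM in control MZ and 4.80 to 5.87 CPM in FO.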

How the data were processed

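The authors deposited raw counts per gene, a table of normalised signal per gene and tables of their own comparisons with log2 fold changes, p-values and test scores. The submitters' processing notes name the build GRCm38 and the tools TopHat2 2.0.12, DESeq2 1.10.1, Trim Galore and HTSeq. Per the series' design text, a SMARTer kit and 5 ng of RNA were used for MZ libraries (paired reads of 100 bases) and a stranded TruSeq kit for FO libraries (single reads of 100 bases). The extract protocol instead names the SMARTer kit for all samples, and the design text was followed here. How the counting treated strand and read pairs is not stated. Deposited counts were analysed here. The authors' log2 values are quoted where named, and their deposited p-values, signal and other columns were not used.

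Counts were fitted in edgeR 4.0.16 under R 4.3.3 with TMM scaling, filterByExpr by group, robust dispersion and the quasi-likelihood test on the 8 libraries of each comparison, and p-values were adjusted by Benjamini-Hochberg over all tested genes, with calls at an adjusted p under 0.05. The fitting was tested on simulated data. Alternatives were DESeq2 1.42.0, size factors, no filter, all 12 libraries in 1 fit, each library left out, a replicate block, other windows and protein-coding neighbours. Of 43629 genes, 42462 matched GENCODE M21 and 19338 had no count. Likeness used log2(CPM + 0.5). The 4 genes, the relatives and the marker lists were chosen with earlier results of these data known. Named genes are the 4, Zfp36l1, called neighbours within 2 Mb and the nearest tested gene on each side, up to 4 genes per list by p and the 3 most alike per member, leaving out predicted genes. Uqcrfs1, Gpx3, Slc36a3, Slc36a3os, Tbc1d9b, Zfp354b, Zfp354c, Cd8a, Hbb-bt and Adgre1 were added after their values were seen. So were the differences of Csf1r, Lyz2, Cd68, Vcam1, Cd1d1 and Dtx1 between the MZ groups. Sequences were read from GENCODE M21 transcripts.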

Additional observations from a re-analysis of the deposited data

Results flagged for a closer look

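Gm2a, the gene that fell near Lyrm7, had 1 library far from its group: FO replicate 4 stood at 129 CPM, against 180 to 191 CPM in the other 3 FO libraries. It was picked out because its gap to the nearest FO library is large for the range of the group (above Dixon's 95% limit for 4 samples). Chance gives about 1 such group in 20, and 66 groups of 4 libraries were examined, 1 of which met this limit.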

How the results depend on the processing

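Against FO cells, the log2 differences of the 4 genes kept their direction under every alternative run, and 102 of 104 such values kept their side of the threshold. Replicate numbers do not pair the samples (genotypes differ, and same-numbered MZ and FO libraries had deviations correlated between -0.11 and 0.13). With a replicate block, which leaves 1 residual degree of freedom, deficient MZ minus FO was 2.25 for Grm6 (adjusted p = 0.182) and 1.47 for Trpm5 (adjusted p = 0.0509), and it changed no other call of the 4 genes. The 526 genes called between deficient and control MZ became 1033 by DESeq2, 790 with all 12 libraries in 1 fit and 257 to 506 with 1 library left out (309, 257 and 311 without control MZ replicate 3, 4 or 6 and 299 without deficient MZ replicate 8). Called neighbours of Grm6 (3) became 8 by DESeq2, 6 with all libraries in 1 fit, 5 without the count filter and 1 to 6 with 1 library left out (1 without deficient MZ replicate 8). Within 1, 5 and 10 Mb of Grm6 they were 0 of 30, 12 of 103 and 15 of 180 tested. Those of Lyrm7 (7) became 4 to 7 with 1 library left out (4 without control MZ replicate 3, 4 or 6 or deficient MZ replicate 8). Within 5 and 10 Mb of Lyrm7 they were 11 of 110 and 16 of 212 tested. At 5 and 10 Mb these 2 windows overlap, and the 7 genes called near Lyrm7 are also counted for Grm6. Those of Trpm5 (3) became 6 by DESeq2, 6 with all libraries in 1 fit and 5 without the filter. Those of Gpatch11 (0) became 1 of 44 and 3 of 96 tested within 5 and 10 Mb. All 13 together became 22 by DESeq2, 20 with all libraries in 1 fit, 23 of 412 tested within 10 Mb and 7 to 16 with 1 library left out (8 without control MZ replicate 3 or 4 and 7 without deficient MZ replicate 8). The TRPM list had 1 call, Trpm7, by DESeq2 and with all libraries and 0 to 1 with 1 left out. The taste and tuft list had 1 without the filter, and complex III had 0 without the filter and 0 to 1 with 1 left out. The searches of all annotated 3′ UTRs and the counts of protein-coding neighbours moved no result by over 1.5 times. Differences near 0 changed sign: Zfp2 was 0.0016 by DESeq2, 0.0043 with size factors, 0.008 with all libraries and -0.0364 to 0.0248 with 1 left out, Heatr5b -0.1554 to 0.0146 and Itpr3 -0.0654 to 0.03. Zfp879, not called in the reported fit, was called by DESeq2 (adjusted p = 0.0382) and with all libraries (adjusted p = 0.0413). The causes of these shifts were not tested. Counts of 39 to 84 limit the precision of Trpm5 in control MZ.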
